A study of Mus musculus with 10 samples.

Results

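The genes described here carry peptides to the cell surface on MHC class I molecules. They are the heavy chain genes H2-K1 and H2-D1, the light chain gene B2m, the peptide transporter genes Tap1 and Tap2, the tapasin gene Tapbp, the immunoproteasome subunit genes Psmb8, Psmb9 and Psmb10, and Nlrc5, the class I transactivator. The 10 genes were taken by symbol from 23284 features, and all 10 were found. They were measured by stranded mRNA sequencing of the colorectum of BALB/c mice aged 7 weeks, in 10 libraries with 2 in each of 5 groups. Normal mice were untreated and their tissue was taken on day 0. The 4 other groups received 2% dextran sodium sulfate (DSS), an agent that injures the colonic lining and provokes colitis, and a miRNA packed in super carbonate apatite (sCA), a nanoparticle carrier, by tail vein. The NC-miR day 2 and NC-miR day 4 groups received a negative control miRNA, and the miR-29a day 4 and miR-29b day 4 groups received miR-29a or miR-29b, with the day giving when tissue was taken. No group received DSS without a miRNA and carrier, so the DSS and the injections cannot be told apart in any comparison with normal mice. The labels list injections on days 1, 2 and 3 for the NC-miR day 2 group too, although its tissue was taken on day 2, and the names of the 4 NC-miR libraries can be read in more than one way, so the day of each such library is taken from its sample label. The labels do not say that each library came from a separate mouse, so p-values measure the spread between these libraries.

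Class I molecules show fragments of the cell's own proteins to CD8 T cells and to natural killer cells. The proteasome cuts proteins into peptides, the TAP transporter moves the peptides into the endoplasmic reticulum, and tapasin and its partners load them onto a heavy chain paired with beta-2 microglobulin. Interferons are known to raise most of these genes, to exchange the constitutive catalytic subunits of the proteasome for immunosubunits, and to raise NLRC5, which acts at class I promoters. In the gut the pathway is known from epithelial cells as well as from leukocytes.

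Of the 10 genes, 7 lie on chromosome 17, 2 on chromosome 8 (Psmb10 and Nlrc5) and 1 on chromosome 2 (B2m), in the GENCODE vM21 annotation of GRCm38. Promoter sequence from RefSeq (GRCm38.p6) was held for 8 of the 10, and Tap2 and Nlrc5 are named only. The 250 bases before the annotated start are shown for the genes the results turn on. The B2m stretch lies on the plus strand at chr2:122147437-122147686, with capitals on the one match to the interferon-stimulated response element.
B2m: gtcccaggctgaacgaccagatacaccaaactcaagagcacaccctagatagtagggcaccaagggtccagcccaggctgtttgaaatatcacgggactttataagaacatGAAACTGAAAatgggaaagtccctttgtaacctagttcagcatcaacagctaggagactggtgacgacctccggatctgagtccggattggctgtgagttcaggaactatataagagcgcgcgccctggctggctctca
The heavy chain stretches lie at chr17:34000348-34000597 on the minus strand for H2-K1 and chr17:35262844-35263093 on the plus strand for H2-D1. Capitals mark the runs of at least 20 bases that the 2 genes share, 3 runs that hold 108 bases in all, with 47 bases in the longest.
H2-K1: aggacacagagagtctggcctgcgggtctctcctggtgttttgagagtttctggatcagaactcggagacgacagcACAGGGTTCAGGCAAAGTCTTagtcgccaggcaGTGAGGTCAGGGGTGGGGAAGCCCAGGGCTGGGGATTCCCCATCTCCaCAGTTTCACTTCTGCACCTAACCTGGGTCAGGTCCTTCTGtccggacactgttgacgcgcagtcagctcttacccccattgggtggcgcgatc
H2-D1: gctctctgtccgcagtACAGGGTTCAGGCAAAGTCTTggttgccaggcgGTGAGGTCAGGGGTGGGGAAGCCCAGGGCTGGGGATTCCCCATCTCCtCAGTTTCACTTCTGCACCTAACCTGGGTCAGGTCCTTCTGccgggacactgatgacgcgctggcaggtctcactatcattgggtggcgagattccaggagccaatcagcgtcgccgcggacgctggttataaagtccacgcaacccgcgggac
Tap1 and Psmb9 point away from each other, with RefSeq start sites 226 bases apart, so 1 stretch serves both. It is given on the strand of Tap1 at chr17:34187306-34187555, with capitals between the 2 start sites.
Tap1 and Psmb9: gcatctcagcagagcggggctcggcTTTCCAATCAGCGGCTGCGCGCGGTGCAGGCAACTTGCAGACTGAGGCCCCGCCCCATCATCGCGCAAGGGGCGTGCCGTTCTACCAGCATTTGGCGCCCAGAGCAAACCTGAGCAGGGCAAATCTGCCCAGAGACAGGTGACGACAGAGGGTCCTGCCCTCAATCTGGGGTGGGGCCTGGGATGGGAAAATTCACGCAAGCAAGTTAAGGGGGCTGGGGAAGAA

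Motifs were searched as letters on both strands of windows that run from 250 bases before a start to 50 bases after it. The response element GAAANNGAAA occurred in 3.443% of 32851 such windows. Among the 8 genes with a window, B2m alone held it, 139 to 130 bases before its start. The gamma-activated element TTCNNNGAA occurred in 8.298% of all windows and in 1 of the 8, Psmb8, and the letters TGACGT occurred in 7.513% of all windows and in none of the 8. CCAAT occurred in 37.41% of all windows and in 6 of the 8, B2m, H2-D1, H2-K1, Psmb9, Tap1 and Tapbp. A pair of shorter elements, chosen after the heavy chain sequences had been read, was found in both heavy chain genes and in none of the 6 others. GAANNGAAA, a shorter form of the response element, occurred in 7.516% of all windows, and GGGGATTCC, part of an NF-kB element, in 0.2496%. The matches depend on the start site chosen. For Psmb8, Tapbp and H2-D1 the RefSeq start sites used here are 34198195, 33919478 and 35263094 on chromosome 17. GENCODE vM21 begins these genes earlier, at 34197721, 33915899 and 35262730. A match of letters is a description of the sequence and not evidence of a bound site.

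The deposited values are on a log2 scale, each relative to a baseline of its own gene, so that 1 unit is a 2-fold difference between libraries. Levels therefore cannot be compared between genes. Low values had been raised to a common floor, and 12680 to 12940 features lay above it in each library. Read depth is unknown, since no counts are given. Differences were tested with limma, a linear model fitted to all 13051 features that cleared the floor in both libraries of some group, and called where the Benjamini-Hochberg adjusted p was under 0.05. All 10 genes passed this filter. Nlrc5 passed it through the NC-miR day 2 group alone and had to differ there, so it is left out of the counts of genes called or set apart, which are over the 9 genes above the floor in every library. Epithelial markers were above the floor in every library (10 of 10 genes). Some libraries stood apart from their partners in such markers. NC-miR day 2 replicate 1 lay a median of 4.32 above normal on the log2 scale over 2 neutrophil markers, S100a8 and S100a9, and replicate 2 lay at 1.29. NC-miR day 4 replicate 1 lay a median of 6.09 above normal on the log2 scale over 2 squamous epithelial markers, Krt13 and Krt14. NC-miR day 4 replicate 2 lay at 0.03, so day 4 results are also given without replicate 1. Only these 2 of the 8 squamous markers listed were tested. Krt4, Sprr3, Trp63 and Dsg3 were at the floor in all 10 libraries, and Krt5 and Krt6a in 9.

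B2m encodes the light chain shared by all classical class I molecules. Its values were -0.78 and -0.79 in the normal libraries, 0.68 and 0.52 in NC-miR day 2, 0.27 and -0.06 in NC-miR day 4, -0.18 and -0.40 in miR-29a and -0.22 and 0.05 in miR-29b. Every library of the DSS groups lay above both normal libraries, and both NC-miR day 2 libraries lay above all others. B2m rose on day 2 by 1.38 ± 0.17 (log2, limma standard error, n = 2 libraries per group), a 2.61-fold difference with an adjusted p of 0.0085. On day 4 the differences from normal were 0.89 ± 0.17 with NC-miR, 0.49 ± 0.17 with miR-29a and 0.70 ± 0.17 with miR-29b, and none was called (limma adjusted p = 0.075, 0.34 and 0.12). The gene Patl2 spans all of B2m on the opposite strand in the annotation, and whether the authors counted by strand is not stated in the sources used here.

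The heavy chain H2-K1, which holds the peptide at the surface, had values of -0.71 and -0.64 in normal mice, 0.32 and 0.32 in NC-miR day 2, 0.31 and -0.23 in NC-miR day 4, -0.30 and -0.31 in miR-29a and 0.05 and 0.40 in miR-29b. Again all 8 libraries of the DSS groups lay above both normal libraries. The difference on day 2 was 0.99 ± 0.19 and just missed the threshold (limma adjusted p = 0.057). On day 4 it was 0.72 ± 0.19 with NC-miR, 0.37 ± 0.19 with miR-29a and 0.90 ± 0.19 with miR-29b, with limma adjusted p-values of 0.16, 0.55 and 0.10.

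H2-D1, the other heavy chain, read -0.40 and -0.49 in normal mice, 0.13 and 0.24 in NC-miR day 2, 0.21 and -0.26 in NC-miR day 4, -0.11 and -0.25 in miR-29a and 0.12 and 0.38 in miR-29b. The normal libraries were once more the lowest, and the highest group mean was that of miR-29b, 0.06 above NC-miR day 2 with overlapping libraries. The difference from normal was 0.62 ± 0.18 on day 2 with NC-miR (adjusted p = 0.17) and 0.69 ± 0.18 on day 4 with miR-29b (adjusted p = 0.15, both limma). Heavy chain values carry an uncertainty of mapping. H2-K1 and H2-D1 transcripts were 88.98% identical over 1533 aligned bases, 8.79% of the 50-base stretches of H2-K1 and 14.32% of those of H2-D1 also occurred in other genes, and BALB/c mice carry heavy chain alleles that differ from those of the reference strain. How the authors placed reads shared between such genes is not stated in the sources used here.

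**Figure D1:**
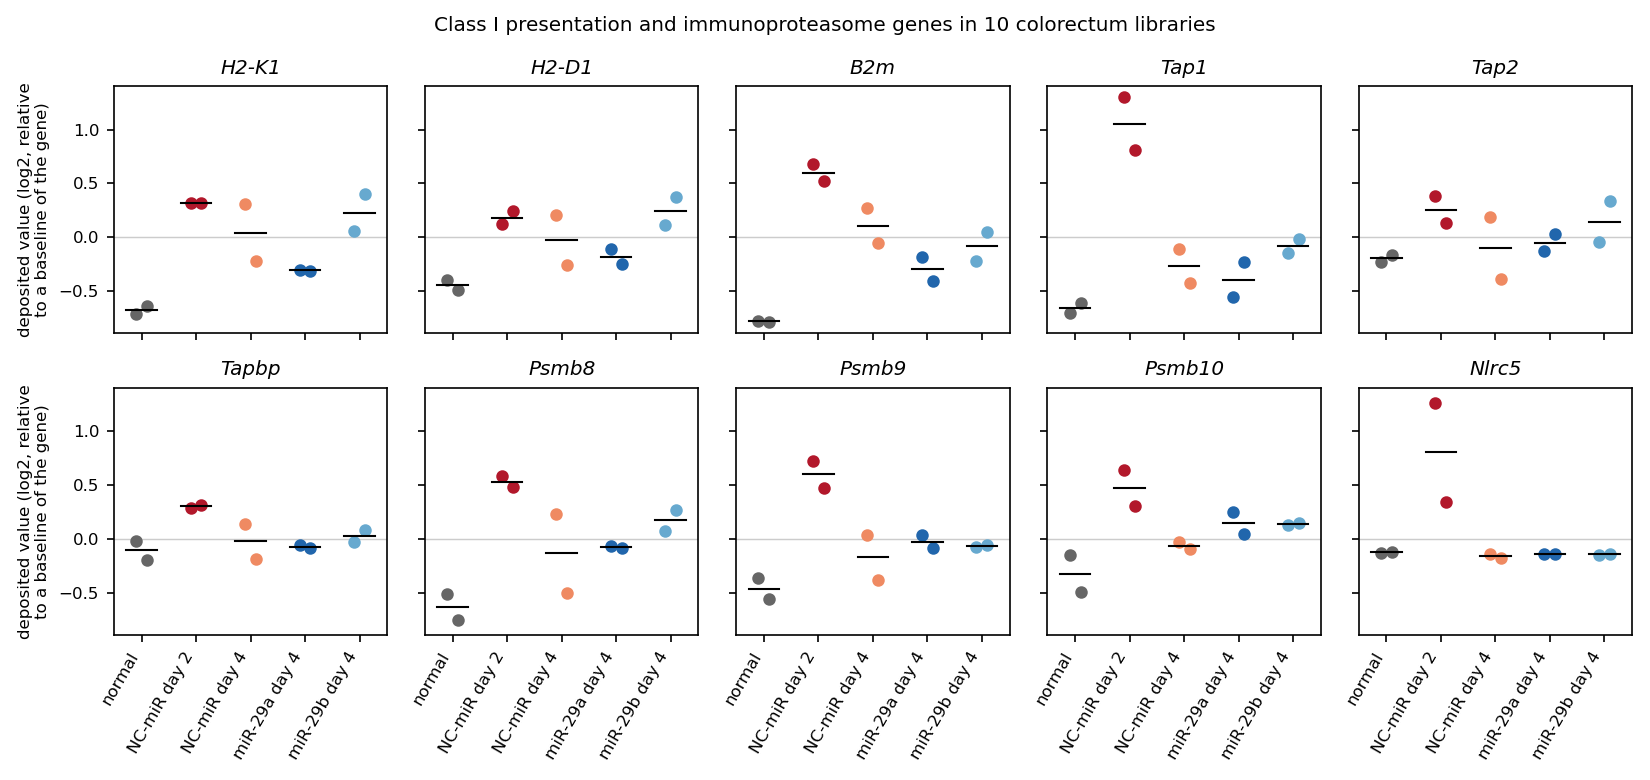
Deposited log2 values, relative to a baseline of each gene, of the 10 genes (panels) in the 10 libraries (points) by group, with a bar at each mean of 2 libraries. Values of the normal libraries are the lowest for H2-K1, H2-D1, B2m, Tap1, Psmb8 and Psmb10, and Nlrc5 leaves its floor only in the 2 NC-miR day 2 libraries, at 1.27 and 0.35.

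Tap1 and Tap2 form the transporter that feeds peptides to class I molecules. Tap1 read -0.70 and -0.61 in normal mice, 1.30 and 0.81 in NC-miR day 2, -0.11 and -0.43 in NC-miR day 4, -0.55 and -0.23 in miR-29a and -0.15 and -0.01 in miR-29b. Both NC-miR day 2 libraries stood clear of the 8 others, and those of day 4 lay nearer to normal. The day 2 difference, 1.71 ± 0.20 on the log2 scale or 3.28-fold, had the smallest p-value of the 10 genes (limma adjusted p = 0.0083). On day 4 Tap1 differed from normal by 0.39 ± 0.20 with NC-miR, 0.26 ± 0.20 with miR-29a and 0.58 ± 0.20 with miR-29b, with no call (limma adjusted p = 0.40, 0.71 and 0.24).

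Tap2 ranged over 0.77 log2 units in all, against 2.01 for Tap1. Its values were -0.23 and -0.16 in normal mice, 0.38 and 0.13 in NC-miR day 2, 0.19 and -0.39 in NC-miR day 4, -0.13 and 0.03 in miR-29a and -0.05 and 0.34 in miR-29b. The NC-miR day 4 libraries took in the whole range of the normal ones. The day 2 difference from normal was 0.45 ± 0.22 (limma adjusted p = 0.37). Both TAP genes share 25 of their 50-base stretches with each other, 0.8609% of those of Tap1.

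Tapbp encodes tapasin, which bridges the transporter and the empty class I molecule. Its values ranged over 0.51 log2 units in all, the narrowest range of the 10 genes. They were -0.02 and -0.19 in normal mice, 0.29 and 0.32 in NC-miR day 2, 0.14 and -0.18 in NC-miR day 4, -0.06 and -0.09 in miR-29a and -0.03 and 0.08 in miR-29b. The NC-miR day 2 libraries were the highest, and each day 4 group overlapped the normal libraries. The day 2 difference was 0.41 ± 0.15 (limma adjusted p = 0.24), and those of day 4 were 0.08, 0.03 and 0.13 with NC-miR, miR-29a and miR-29b. The tapasin-related gene Tapbpl, which edits the peptides of class I molecules outside the loading complex, rose on day 2 by 0.99 ± 0.18 (limma adjusted p = 0.045), a call that was lost without any one of the normal, NC-miR or miR-29a libraries (0.054 to 0.28).

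Psmb9 encodes an immunosubunit and starts beside Tap1. It read -0.37 and -0.56 in normal mice, 0.73 and 0.47 in NC-miR day 2, 0.04 and -0.38 in NC-miR day 4, 0.03 and -0.09 in miR-29a and -0.08 and -0.06 in miR-29b. The NC-miR day 2 libraries were the highest, and NC-miR day 4 replicate 2 fell between the normal libraries. Psmb9 rose on day 2 by 1.06 ± 0.17, or 2.09-fold (limma adjusted p = 0.032). In the GENCODE vM21 annotation the genes Tap1 and Psmb9 overlap over 212 bases on opposite strands. Their RefSeq start sites, used for the promoter stretch, lie 226 bases apart, so the 2 annotations differ here.

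Psmb8, the immunosubunit between Tap1 and Tap2 on chromosome 17, read -0.51 and -0.75 in normal mice, 0.58 and 0.48 in NC-miR day 2, 0.23 and -0.50 in NC-miR day 4, -0.07 and -0.08 in miR-29a and 0.08 and 0.27 in miR-29b. The normal libraries were the lowest, NC-miR day 4 replicate 2 by only 0.012 above the nearer of them. The day 2 difference was 1.17 ± 0.23 (limma adjusted p = 0.057), and on day 4 it was 0.50 ± 0.23 with NC-miR, 0.56 ± 0.23 with miR-29a and 0.80 ± 0.23 with miR-29b. Psmb10, the immunosubunit on chromosome 8, read -0.15 and -0.49 in normal mice, 0.64 and 0.31 in NC-miR day 2, -0.03 and -0.09 in NC-miR day 4, 0.25 and 0.04 in miR-29a and 0.13 and 0.15 in miR-29b. Its normal libraries were the lowest as well, with a day 2 difference of 0.80 ± 0.17 (limma adjusted p = 0.077). Antisense genes are annotated over Psmb8, Psmb10, Tap2 and Tapbp, and without known strand use their reads cannot be told apart. Tapbp also overlaps the protein-coding gene Zbtb22 over 3422 bases of the same strand, where strand could not separate the reads.

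Nlrc5 was at the floor in 8 of 10 libraries. It lay above the floor in NC-miR day 2 replicate 1, at 2.76 times the floor, and in replicate 2, at 1.42 times. Its mean there was thus at least 1.98-fold higher than in every other group, with a limma difference from normal of 0.93 ± 0.25 that depends on the floor (adjusted p = 0.15). Among the other groups both values of each comparison lie at the floor and no difference can be given.

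The first comparison asks where these genes stood on day 2 of DSS with NC-miR, against normal. The 9 genes above the floor in every library were all higher in both NC-miR day 2 libraries than in both normal ones. Of all features, 18.6% were. 3 of the 9 genes were called, B2m, Tap1 and Psmb9, against 1.22% of all 13051 features in either direction and 1.07% called as higher. The differences ran from 0.41 for Tapbp to 1.71 for Tap1, with a median of 0.96 over the 10 genes and 0.99 over the 9 without Nlrc5, beside -0.06 over all features tested. The 3 calls were lost without normal replicate 1 (limma adjusted p = 0.069 for B2m, 0.072 for Tap1 and 0.12 for Psmb9) and without normal replicate 2 (0.11, 0.083 and 0.24), and the calls of B2m and Psmb9 were also lost without NC-miR day 2 replicate 1 (0.060 and 0.21), while the differences themselves stayed at 1.30 to 1.47, 1.47 to 1.96 and 0.94 to 1.19. Psmb9 alone also lost its call without either miR-29a library (0.063) or either miR-29b library (0.060).

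On day 4 with NC-miR, 0 of the 9 genes differed from normal at the threshold, against 0.383% of all features. An unadjusted limma p under 0.05 was reached by 3 of the 9 and by 1985 of the 13051 features. Both libraries lay above both normal ones for 6 of the 9 genes, against 20.4% of all features, and the 3 others, Tap2, Tapbp and Psmb9, overlapped normal. The median difference was 0.39, beside -0.03 over all features. It moved to 0.18 on leaving out NC-miR day 4 replicate 1 and to 0.55 on leaving out its partner. Without replicate 1, Tap2 and Tapbp lay below normal, by -0.19 and -0.08.

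Against NC-miR day 2, the NC-miR day 4 group had lower means for all 9 genes, from -0.21 for H2-D1 to -1.32 ± 0.20 for Tap1, with a median of -0.50 beside 0.02 over all features. No gene was called (limma, 0.0153% of all features were), and 5 of the 9 had an unadjusted p under 0.05, as did 837 of the 13051 features. Both day 4 libraries lay below both day 2 libraries for 7 of the 9 genes, against 16.1% of all features. For H2-K1 that gap was 0.002, and H2-D1 and Tap2 overlapped. The adjusted p of Tap1 was 0.34. Without NC-miR day 2 replicate 2, Tap1 was called as lower on day 4 by -1.57 (limma adjusted p = 0.025), as were 0.72% of all features in either direction, and so was Nlrc5, which had to differ. Leaving out NC-miR day 4 replicate 1 moved the median to -0.64, and leaving out its partner moved it to -0.30 and turned H2-D1 to 0.028.

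**Figure D2:**
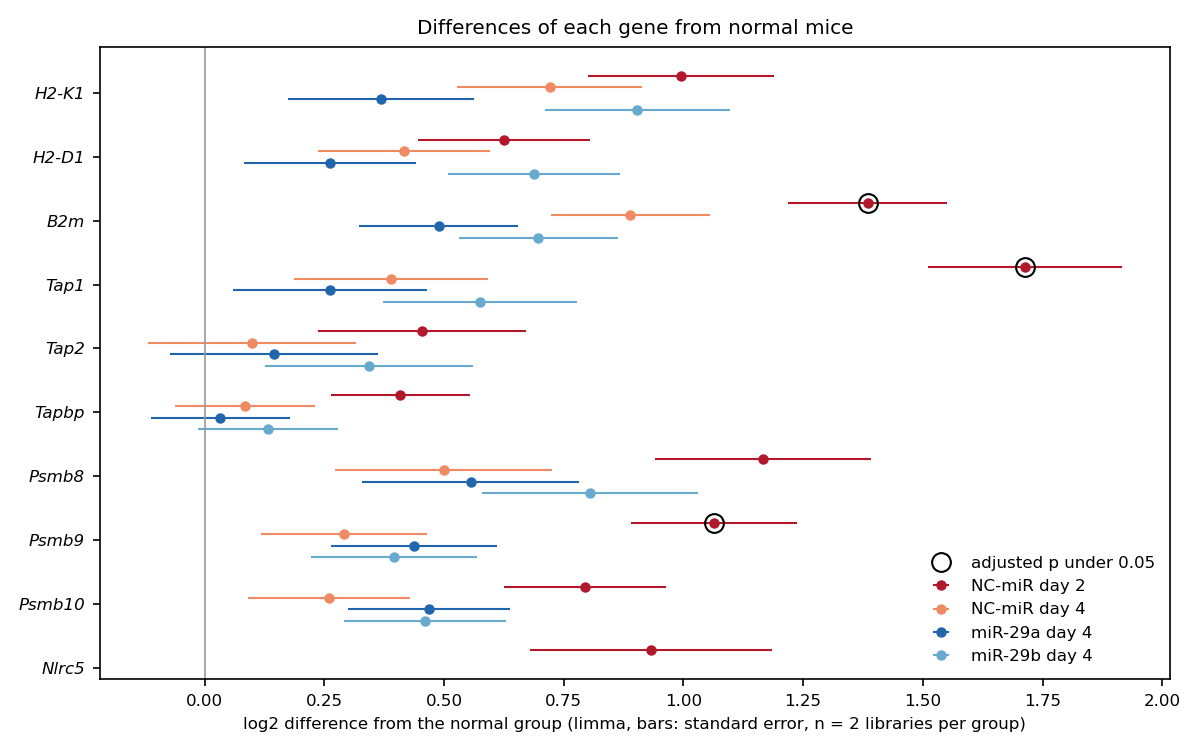
Log2 difference of each gene (vertical axis) from the normal group, as limma estimates with standard errors, for the 4 DSS groups in colour. Open circles mark the 3 differences called, all on day 2, and Nlrc5 is drawn for day 2 alone because it lay at its floor in the other groups.

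The next question was where the miR-29a and miR-29b groups stood. With miR-29a, 8 of 9 genes were higher than normal in both libraries, against 21% of all features, with a median difference of 0.37, and 0 were called, against 0.421%. With miR-29b, 8 of 9 were higher in both libraries, against 21.3% of all features, with a median of 0.58, and 0 were called, against 0.49%. The 10 epithelial markers were all higher than normal with miR-29b too, with a median of 0.44 and 0 called, and their part in the difference was not tested. In both groups Tapbp was the exception. Unadjusted limma p-values were under 0.05 for 4 and 6 of the 9 genes, beside 1434 and 2000 of the 13051 features. The 4 comparisons with normal share the same 2 normal libraries, so their differences are not independent of each other.

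Set against NC-miR on the same day, neither miRNA gave a call among these genes, and 0% of all features were called in either comparison by limma, although 996 and 1627 features had an unadjusted p under 0.05. With miR-29a, B2m was lower by 0.40 ± 0.17, with both libraries below both NC-miR ones (limma adjusted p = 0.65). H2-K1 was also lower in both miR-29a libraries, by -0.35 ± 0.19, and Psmb10 was higher in both, by 0.21 ± 0.17. The 6 others overlapped. Of all features, 19.3% were lower in both miR-29a libraries and 22.4% higher, so 2 and 1 of 9 are near the background. With miR-29b, Psmb10 was higher in both libraries, as were 22.7% of all features, while 19.5% were lower in both. The 8 other genes overlapped NC-miR, and differences ran from -0.19 for B2m to 0.31 for Psmb8. The median over the 9 genes was -0.05 with miR-29a and 0.19 with miR-29b. Over the epithelial markers it was 0.03 and 0.46, with 9 of 10 higher with miR-29b. These values rest on which NC-miR library is used. The medians were 0.11 and 0.35 when NC-miR day 4 replicate 1 was omitted, and -0.29 and -0.06 when its partner was.

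Between the 2 miRNAs, both miR-29a libraries lay below both miR-29b libraries for 5 of the 9 genes, H2-K1, H2-D1, Tap1, Tapbp and Psmb8, against 19.7% of all features, and above them for 0 of the 9, against 20.3%. The median over the 9 genes was -0.21, beside 0.01 over all features. Other lists stood as low. The median was -0.21 over 11 other core subunits of the proteasome and -0.22 over 18 of its regulatory cap, with every gene of both lists lower, and -0.33 over 10 epithelial markers, all lower. H2-K1 differed by -0.54 ± 0.19 and H2-D1 by -0.43 ± 0.18. Both limma adjusted p-values were 0.67, and 0% of all features were called, with 970 at an unadjusted p under 0.05. Psmb9 and Psmb10 differed by 0.04 ± 0.17 and 0.01 ± 0.17. In a limma F-test of any difference among the 5 groups, 0 of the 9 genes passed, against 0.375% of all features. The closest were Tap1 and B2m, with adjusted p-values of 0.053 and 0.059, and Tap2 was the farthest at 0.58.

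The highest and the lowest group mean were mostly those of the same groups, while the order between them varied by gene. Among the 9 genes above the floor, NC-miR day 2 was the highest for 8, and miR-29b for H2-D1. Normal was the lowest for all 9. The share of all features with such ranks was not counted. Libraries of NC-miR day 2 overlapped those of the next group for H2-K1 and Tap2. Normal libraries overlapped those of the next group for Tap2, Tapbp and Psmb9. In between, neighbouring day 4 groups overlapped for H2-D1, B2m, Tap1, Tap2, Tapbp and Psmb9. They stood apart for H2-K1, where both NC-miR libraries exceeded both miR-29a ones, for Psmb8, where miR-29b exceeded miR-29a, and for Psmb10, where miR-29b exceeded NC-miR.

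Immunosubunits replace constitutive subunits within the same core particle, Psmb8 for Psmb5, Psmb9 for Psmb6 and Psmb10 for Psmb7. The log2 ratio of each pair was taken within each library, which removes any scaling of the library, and set to 0 at the normal mean. The ratio of Psmb8 to Psmb5 was 1.60 and 1.33 in NC-miR day 2, 1.13 and 0.37 in NC-miR day 4, 0.66 and 0.81 in miR-29a and 0.81 and 0.69 in miR-29b. That of Psmb9 to Psmb6 was 1.35 and 1.11, then 0.83 and 0.37, 0.67 and 0.56, and 0.59 and 0.27, in the same order. That of Psmb10 to Psmb7 was 0.91 and 0.53, then 0.28 and 0.16, 0.55 and 0.41, and 0.44 and 0.11. For all 3 pairs, all 8 libraries of the DSS groups exceeded both normal libraries. The groups differed in each pair by an exact permutation test of the F statistic over every way to split 10 libraries into pairs, with p = 0.019, 0.018 and 0.032, and 0.029, 0.029 and 0.032 after adjustment over the 3 pairs. All 3 adjusted p-values exceeded the threshold when either normal library, NC-miR day 2 replicate 1 or either miR-29a library was left out (0.059 to 0.12), and that of Psmb10 to Psmb7 also without either NC-miR day 4 library (0.074 and 0.085).

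**Figure D3:**
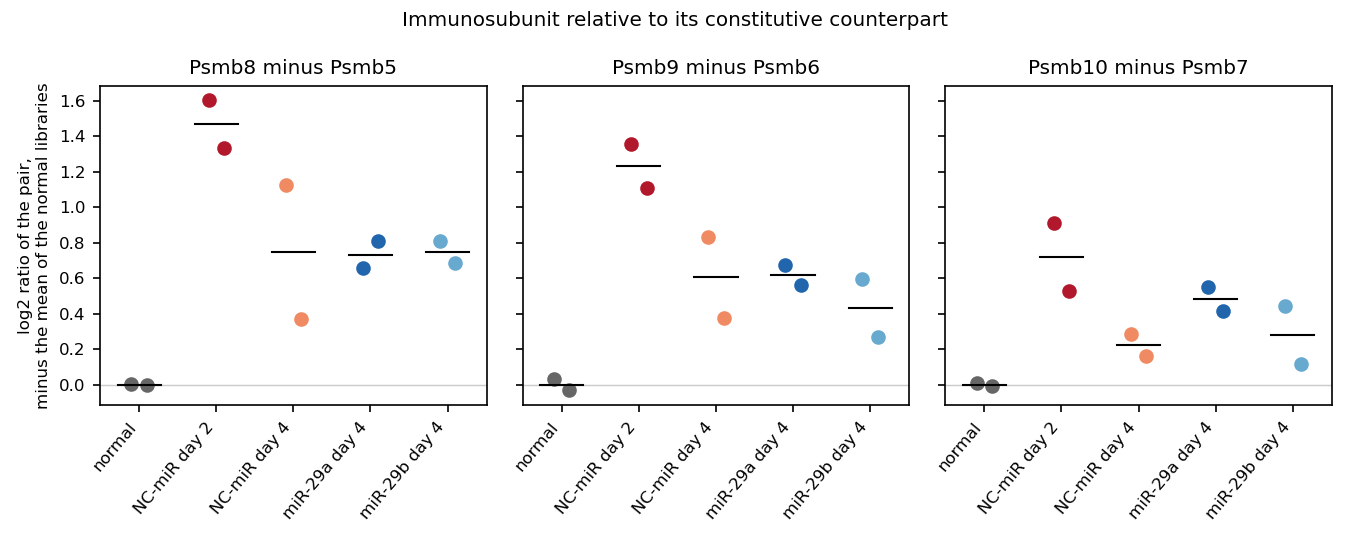
Log2 ratio of each immunosubunit to its constitutive counterpart within a library (vertical axis, normal mean set to 0) by group, with points for libraries and bars for means. The NC-miR day 2 libraries reach 1.60 and 1.33 for Psmb8 to Psmb5, and no DSS library falls to the normal values in any pair.

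The constitutive side of these ratios gave no call. Psmb5, Psmb6 and Psmb7 differed from normal on day 2 by -0.30 ± 0.16, -0.17 ± 0.14 and 0.08 ± 0.16, and none was called in any of the 8 comparisons. Psmb5 and Psmb6 were lower than both normal libraries in both NC-miR day 2 and both NC-miR day 4 libraries, and Psmb7 overlapped normal. Part of the rise in the ratios to Psmb5 and Psmb6 thus came from the constitutive side. The share of all features lower in both libraries was not counted for these comparisons. The 11 other subunits of the core particle had a median of -0.18 on day 2, and the 18 subunits of the regulatory cap one of -0.19, with 0 called in each list. Nor was any of the 10 activators, inhibitors and assembly factors called, with a median of -0.08. The activator subunits Psme1 and Psme2, which form the interferon-inducible cap of the proteasome, were higher than normal in both day 2 libraries, by 0.50 ± 0.15 and 0.37 ± 0.16 (limma adjusted p = 0.19 and 0.33). Of all features, 18.6% were higher in both.

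Among 14 genes for folding, trimming and loading in the endoplasmic reticulum, Tapbpl alone was called on day 2, as higher. The median of the 14 was 0.00. Erap1, which trims peptides to length, differed by 0.52 ± 0.16 on day 2 and 0.53 ± 0.16 on day 4 with NC-miR, Pdia3 by 0.25 ± 0.14 and 0.31 ± 0.14, and the chaperone Calr by 0.12 ± 0.17 and 0.33 ± 0.17, none called by limma. Of 7 cytosolic peptidases, which destroy or trim peptides before transport, 0 were called and all 7 lay below normal on day 2, with a median of -0.12. Blmh had the smallest p-value, at -0.28 (limma adjusted p = 0.35).

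Of 12 transcription factors of class I genes described here, 2 were called on day 2, both as higher. Irf9 rose by 2.30 ± 0.25 and Stat2 by 2.08 ± 0.30 (limma adjusted p = 0.0065 and 0.019). Both take part in the complex that carries interferon signals to the response element. Their calls were lost without normal replicate 1 or 2, with limma adjusted p-values of 0.053 and 0.083 for Irf9 and 0.13 and 0.14 for Stat2, and that of Stat2 also without NC-miR day 2 replicate 1 (0.081). Irf1, which also acts at class I promoters, differed by 0.19 ± 0.15, and Rfx5, the DNA-binding partner of Nlrc5, by -0.08 ± 0.15. Ciita, the class II counterpart of Nlrc5, differed by -0.49 ± 0.26, and it lay at the floor in 3 libraries. The median of the 12 was -0.13, beside -0.06 over all features, so that most factors of the list had no difference on the scale of the 2 called.

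Of the ligands, receptors and kinases that start interferon and TNF signals, 10 genes were found and 7 could be tested, with 0 called and a median of 0.10 on day 2. Ifng and Ifnb1 were at the floor in all 10 libraries and Tnf in 8. Over all lists of the pathway, 3 of 82 tested genes were called on day 2, all as higher and against 1.22% of all features, with a median of -0.12. In the 7 other comparisons none of the 82 was called.

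**Figure D4:**
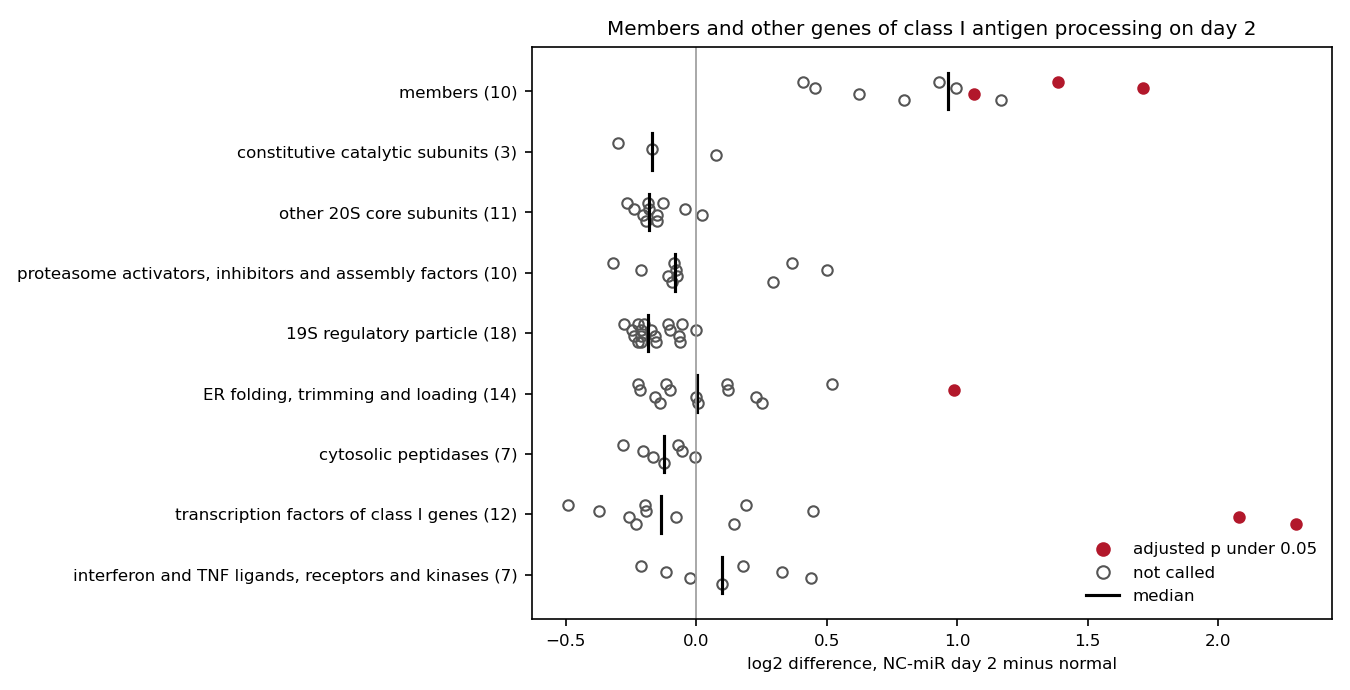
Log2 difference of NC-miR day 2 from normal (horizontal axis) for the 10 members and for the genes of 8 further lists of class I antigen processing, with the number tested in brackets, filled points for genes called and bars for medians. The members run from 0.41 to 1.71 while the medians of the 8 lists lie between -0.19 and 0.10.

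Markers of cells that carry much class I were read beside these values. In whole tissue, more cells of a type and more RNA per cell cannot be told apart. The median over the 10 epithelial markers, relative to normal, read -0.08 and 0.05 for NC-miR day 2, 0.21 and -0.02 for NC-miR day 4, 0.07 and 0.21 for miR-29a and 0.40 and 0.49 for miR-29b, so that it was highest with miR-29b. The median over 4 pan-leukocyte markers was -0.43 and -0.28 in the NC-miR day 2 libraries relative to normal, and -0.05 to -0.60 in the day 4 libraries. All 4 differed downward on day 2, with 0 called. Markers of T and NK cells had a day 2 median of 0.30 over 6 tested of 11, and Cd8a, Cd8b1 and Prf1 were at the floor in all 10 libraries. Those of B and plasma cells had one of -1.43 over 7 tested of 8, those of macrophages and monocytes 0.08 over 8 of 8 and those of dendritic cells 0.25 over 4 of 7, with Xcr1 and Zbtb46 at the floor in all libraries. The 2 neutrophil markers tested, S100a8 and S100a9, had medians of 4.32 and 1.29 in the day 2 libraries, and Cxcr2 and Csf3r were at the floor throughout. The day 2 library that was higher in these markers, replicate 1, was also the higher one for 8 of the 10 class I genes, H2-K1 among them by 0.004, and the lower one for H2-D1 and Tapbp. No marker was called by limma in any comparison with normal, and the part of any cell type in the results was not tested.

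The 10 genes also varied together across libraries. The Pearson correlation of each with the mean of the 9 others ran from 0.72 for Nlrc5 to 0.95 for Psmb9 over the 10 libraries, which share the same group structure, so this is a description. Outside the 10, the features most like their mean were Ifitm3 (r = 0.98), Ly6c1 (0.97), Oas1g (0.96), I830012O16Rik (0.96), Bst2 (0.96), Slfn4 (0.96), Ly6e (0.95), Gbp3 (0.95), Oasl1 (0.95) and Gm11127 (0.95). The members' mean to which these features were matched was 0.63 and 0.39 in NC-miR day 2 and -0.40 and -0.48 in normal mice. A higher value on day 2 was thus built into their choice, and their day 2 differences, from 0.76 for Gm11127 to 4.94 for I830012O16Rik, are a description with no test.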

How the data were processed

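TopHat2 2.0.13, Bowtie2 2.2.3, SAMtools 0.1.19, Cuffnorm 2.2.1 and the build mm10 are named in the submitters' processing notes, without settings. The authors' values stand under the heading FPKM, per the file headers. They were read here as deposited log2 values, each set against a gene's own baseline, with low ones raised to a floor. Base 2 rests on a grid of 6 significant digits that held 98.79% of 6286 values from 9 libraries, to within 0.1 of a step, against 19.47% with base e and 21.65% with base 10. Normal replicate 1 was written to 5 decimals, not 9, and only 25.52% of its values fell on that grid (22.17% and 21.05% with the other bases). Its scale rests on the floor instead. Of 930 features with a floor in the other libraries, it lay at the same value in 437, and at that value converted to base e or 10 in 0. The most frequent value of each library ranged from -0.0427 to 0.0331. A feature was at the floor where its lowest value was shared by 2 or more libraries. The height of the floor is not stated, so neither FPKM levels nor depth could be recovered.

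A model of 5 group means was fitted to the 10 libraries with limma 3.58.1 (R 4.3.3, 5 residual and 3.26 prior degrees of freedom), 2-sided, with Benjamini-Hochberg adjustment over 13051 features. An exact 2-sided permutation test of 2 libraries against 2 cannot give a p under 0.333. The exact F test of subunit pairs can go down to 0.00106. In 1 simulation of NC-miR day 2 against normal over 13051 features, 67 of 100 genes changed by a log2 of 1 and 95 of 100 changed by 2 were called, with 11 false calls. Its noise was normal and independent between features, with the variance that limma estimated for each feature. These shares therefore need not hold for the real libraries.

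The members, lists and tests were chosen with earlier results of these data known. Named were all members, list genes that were called or had the smallest p, 11 genes for their role, and the 10 features most correlated with the members' mean. Other genes were named after their values were seen. A single listed gene was left out of the lists and is not reported here. Sequences came from RefSeq, positions and shared stretches from GENCODE vM21. Alternatives were the samples fitted, the replicate block, the filter, the scaling, robust moderation and leaving out each library. Subtracting each library's constant was added after seeing the data.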

Additional observations from a re-analysis of the deposited data

How the results depend on the processing

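Leaving out 1 library at a time gave between 0 and 5 called members for NC-miR day 2 against normal, between 0 and 2 for NC-miR day 4 against NC-miR day 2 (Nlrc5 being 1 of the 2) and between 0 and 2 for any difference among the 5 groups. The counts of members in this section include Nlrc5 wherever it was tested, although it had to differ on day 2. The day 2 count was 0, beside 26 of all features, in the fit to the 2 groups compared, where fewer libraries inform the spread. It was also 0, beside 28 of all features, with no filter on low values, where features at the floor enter the fit. It was 5, with H2-K1 and Psmb8 added, under median centring, quantile normalization, the filter to features above the floor in all libraries and subtraction of each library's constant, an alternative chosen after seeing the data, with 164 to 183 of all features called there. For any difference among the 5 groups, 2 members passed with the stricter filter, 1 with quantile normalization and 1 with the constant subtracted, beside 73, 91 and 49 of all features. The cause was not tested for any of these settings. In the other 6 comparisons with limma, no alternative called a member. The pseudocount alternative was not run, since the values are already logarithms.

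Same-numbered libraries did not deviate together over all 13051 features (r from -0.24 to 0.11), so the numbers do not pair them over all features. The subunit ratios differed from this. Replicate 1 exceeded replicate 2 in all 5 groups for Psmb9 to Psmb6 and for Psmb10 to Psmb7, and in all but miR-29a for Psmb8 to Psmb5. The reason was not tested. With the replicate block, 3 members were called on day 2 against normal, beside 138 of all features, and 0 elsewhere. For the 3 subunit pairs, the mean of each replicate number was subtracted and the permutation test of F was run as before. F was then 11.2, 38.4 and 15.5, with permutation adjusted p-values of 0.016, 0.0079 and 0.0063. F was not corrected for the means removed, and the splits were not kept within replicate numbers. These p-values are therefore not exact for a block and cannot be read as stronger than those without it. The block lowered the count over all features on day 4 from 50 to 30 with NC-miR, from 55 to 37 with miR-29a and from 64 to 35 with miR-29b. Among the 5 groups that count went from 49 to 28. Over all features, the counts against normal fell to 26 on day 2 and to 20, 24 and 13 on day 4 (NC-miR, miR-29a, miR-29b) in the fit to 2 groups, and to 28, 22, 14 and 29 with no filter. With quantile normalization they fell to 30 for miR-29a and 23 for miR-29b and became 91 among the 5 groups, and with no filter the last was 15. Without 1 library they ran from 16 to 273 on day 2, 6 to 82 on day 4 with NC-miR, 8 to 42 with miR-29a, 5 to 60 with miR-29b, 0 to 94 between the days and 6 to 163 among the 5 groups. In the 3 comparisons among day 4 groups they were 0 to 4 without 1 library and 0 to 3 under the other settings.

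Of 77 gene results, 60 never changed sign over 1384 values under alternatives, and 17 did at least once. Quantile normalization turned miR-29a against NC-miR to -0.013 for Tap2 and -0.014 for Psmb8. All other reversals came from leaving out 1 library, and the values below are the lowest and highest over libraries. Against normal on day 4 with NC-miR they were -0.19 and 0.39 for Tap2, -0.077 and 0.25 for Tapbp and 0.18 and 0.55 for the median, and with miR-29a -0.054 and 0.12 for Tapbp. Between the days they were -0.44 and 0.028 for H2-D1 and -0.64 and -0.30 for the median. For miR-29a against NC-miR they were -0.39 and 0.080 for H2-D1, -0.29 and 0.033 for Tap1, -0.24 and 0.33 for Tap2, -0.21 and 0.11 for Tapbp, -0.31 and 0.42 for Psmb8, -0.065 and 0.36 for Psmb9 and -0.29 and 0.11 for the median. For miR-29b against NC-miR they were -0.087 and 0.45 for H2-K1, -0.0447 and 0.53 for Tap2, -0.11 and 0.21 for Tapbp, -0.062 and 0.67 for Psmb8, -0.11 and 0.32 for Psmb9 and -0.062 and 0.35 for the median. For miR-29a against miR-29b they were -0.022 and 0.10 for Psmb9 and -0.095 and 0.11 for Psmb10. The F statistics of the subunit pairs ran from 4.50 to 41.8 for Psmb8 to Psmb5, 5.57 to 17.8 for Psmb9 to Psmb6 and 3.18 to 8.86 for Psmb10 to Psmb7. With 2 libraries per group and no counts, the smaller differences of Tap2 and Tapbp were not resolved.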
